A study of Homo sapiens with 15 samples.

Results

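The 8 genes described here are the 4 kinases that phosphorylate the translation initiation factor eIF2alpha (EIF2AK1, EIF2AK2, EIF2AK3 and EIF2AK4), 2 regulators of the kinase GCN2 (GCN1 and IMPACT), and the 2 subunits that guide protein phosphatase 1 back to eIF2alpha (PPP1R15A and PPP1R15B). They were taken by symbol from the table of counts, and 8 of 8 were found among its 62754 Ensembl genes. RNA was measured in MCF10A, an immortalised and non-transformed human breast epithelial line, here wild type and 1 cell line only. The cells were maintained in DMEM/F12 with mammary epithelial supplements, cholera toxin and penicillin-streptomycin. In 4 groups they grew in DMEM/F12 without its own glutamine, with 0.04 mM added back in 1 group, 0.12 mM in another, 0.20 mM or 0.28 mM in the others, and in the 5th, labelled full media and without treatment, glutamine was 2.5 mM. Each group had 3 biological replicates, 15 libraries in all, and the sources used here do not give the time spent in the limited media.

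Phosphorylated eIF2alpha blocks the exchange factor eIF2B, which lowers translation of most messages and favours a few, such as that of the transcription factor ATF4. Each kinase answers its own signal: HRI (EIF2AK1) to heme loss and mitochondrial or proteotoxic stress, PKR (EIF2AK2) to double-stranded RNA, PERK (EIF2AK3) to unfolded protein in the endoplasmic reticulum, and GCN2 (EIF2AK4) to uncharged tRNA and stalled ribosomes when amino acids run short. GCN1 carries that signal from the ribosome to GCN2, and IMPACT competes with GCN2 for GCN1. PPP1R15A (GADD34) is the stress-inducible phosphatase subunit and PPP1R15B (CReP) the constitutive one. The kinases are switched on as proteins, and RNA counts do not measure that.

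In RefSeq's GRCh38.p14 promoter table, 7 of the 8 genes had an entry, and EIF2AK1 had none. Each entry runs from 250 bases before a start of the gene to 50 after it. The entry of EIF2AK3 (chr2:88627415-88627714, - strand) lies inside the gene as placed below (chr2:88556741-88628145). The bases just before that outer start of EIF2AK3 were therefore not searched. Both strands were searched for 4 motifs of the pathways above, and 3 stretches with a match are shown because they carry the textbook elements of stress-driven transcription. Capitals mark the match, and each stretch is written 5′ to 3′ on the gene's own strand.
PPP1R15A: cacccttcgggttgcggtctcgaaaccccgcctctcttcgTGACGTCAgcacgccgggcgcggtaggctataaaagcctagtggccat
PPP1R15B: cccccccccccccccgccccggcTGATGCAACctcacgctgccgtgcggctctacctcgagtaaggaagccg
EIF2AK2: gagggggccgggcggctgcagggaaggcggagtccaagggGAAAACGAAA
The PPP1R15A stretch lies at chr19:48872323-48872410 (+ strand) and holds TGACGTCA, the cyclic AMP response element that CREB and ATF proteins bind, beginning 58 bases before the start. That motif is in 1.85% of the 35116 promoters of the table. The PPP1R15B stretch lies at chr1:204411996-204412067 (- strand) and holds a match to TGATGNAAN, the composite element of C/EBP and ATF4, beginning 227 bases before the start. The composite is in 3.61% of promoters. The EIF2AK2 stretch lies at chr2:37156977-37157026 (- strand) and holds GAAA, 2 bases of any kind and GAAA again, the core of an interferon response element, beginning 6 bases before the start, and 3.57% of promoters hold such a pair. The endoplasmic reticulum stress element, CCAAT and CCACG with 9 bases between them, was in 0.0769% of promoters and in 0 of the 7. None of the 4 motifs was found in the windows of EIF2AK3, EIF2AK4, GCN1 and IMPACT. A match describes letters only, and no binding was measured.

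The libraries held 3704170 to 13361406 gene counts, and 2 libraries stood apart by mitochondrial ribosomal RNA: replicate 3 at 0.04 mM with 2.97% of counts and replicate 3 at 0.12 mM with 1.62%, where the highest of the other 13 had 0.402%. All 11 markers of basal and MCF10A epithelium, among them KRT5, KRT14, TP63, CDH1 and EPCAM, were at 1 CPM (counts per 1000000 gene counts of the library) or more. Together they reached 17650 to 25910 CPM per library. The CPM of markers are not TMM-scaled, and 1 CPM or more refers to the mean over libraries. The CPM of genes in the paragraphs below are TMM-scaled. Fibroblast markers summed to 33.7 to 60.5 CPM (38.9 in full medium and 56.5 at 0.04 mM on average; COL1A1 and DCN were at 1 CPM or more, and LUM was at 0 counts). Endothelial markers summed to 3.58 to 12.2 CPM (4.43 in full medium and 8.15 at 0.04 mM on average; PECAM1 was at 1 CPM or more, and CDH5 and CLDN5 were at 0 counts). Luminal markers summed to 15.9 to 27.5 CPM (20.3 and 21.4), with FOXA1 and GATA3 at 1 CPM or more and ELF5 at 0 counts. Their part in the results below was not tested. In bulk RNA, fewer cells of a type and less RNA per cell cannot be told apart.

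The RNA of all 4 kinases, both GCN2 regulators and both phosphatase subunits was present in each library, and at no glutamine concentration did any of the 8 genes pass adjusted p under 0.05 against full medium. The exception in size was PPP1R15A, whose mean was 1.44 times as high at 0.04 mM as in full medium, with adjusted p = 0.0526 in edgeR's quasi-likelihood test with the replicate number as a block. Each member was compared in 2 fits over the 13828 genes with enough counts, 8 of 8 members included, 1 without and 1 with that block; libraries that share a replicate number deviated together from their group means (r 0.184 to 0.489), so both are given. With the block, 13.4% of all genes tested were called at 0.04 mM, 8.31% at 0.12 mM, 14.8% at 0.20 mM and 2.08% at 0.28 mM, against 0 of the 8 members at each. These shares rest on single libraries, most of all at 0.28 mM, where leaving out 1 of the 6 libraries compared gave 24 to 780 called genes in place of 287. Without the block, 0.0434%, 0.0%, 0.0145% and 0.0% of all genes were called, again against 0 of 8 members. Of the 32 member comparisons, 3 had an unadjusted p under 0.05 with the block and 2 without it, all of PPP1R15A, and DESeq2 called 1 with the block (PPP1R15A at 0.04 mM) and 0 without it. The 4 comparisons share the 3 full medium libraries, so their values are not independent of each other.

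**Figure D1:**
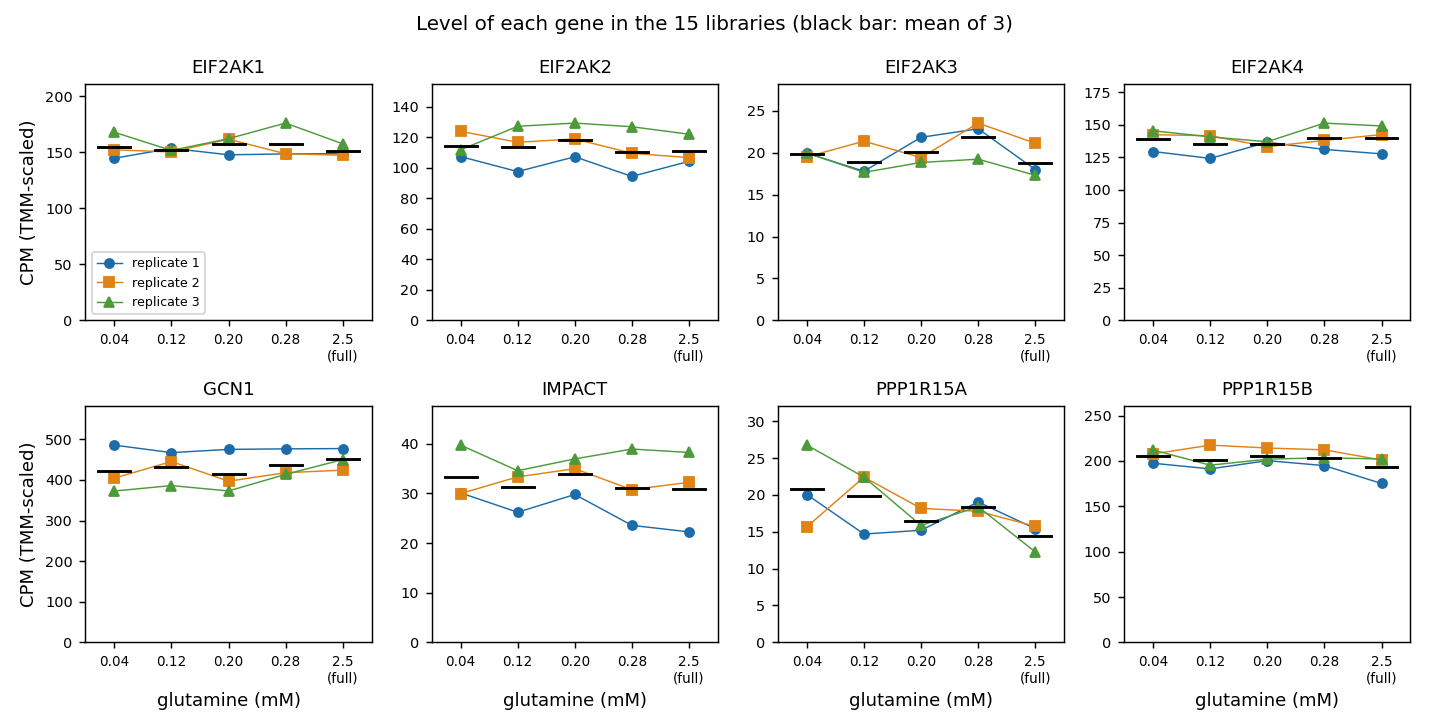
TMM-scaled CPM (vertical axis, from 0) of each gene by glutamine concentration (mM), with points for the 15 libraries, lines joining libraries of 1 replicate number and black bars for the mean of 3. PPP1R15A runs from 12.3 CPM in full medium to 26.75 CPM at 0.04 mM, and the GCN1 libraries of replicate 1 lie above all others of that gene.

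Among the kinases, HRI (EIF2AK1, ENSG00000086232, chr7:6022247-6059175, - strand) had the most RNA per length. On the scale of CPM per kb of exon, its level was 27.8 ± 1.59 (SD, n = 15 libraries), GCN2 (EIF2AK4, ENSG00000128829, chr15:39934115-40035591, + strand) was at 11.5 ± 0.655, PKR (EIF2AK2, ENSG00000055332, chr2:37099210-37156980, - strand) at 10.6 ± 1.02 and PERK (EIF2AK3, ENSG00000172071, chr2:88556741-88628145, - strand) at 3.66 ± 0.352. The range of HRI (26.1 to 31.7 CPM per kb) lay above those of the other 3, and that of PERK (3.19 to 4.33) below them, while the ranges of GCN2 (10.4 to 12.7) and PKR (8.78 to 12.04) overlapped. HRI held 51.9 ± 1.39% of the summed per-length level of the 4 kinases, GCN2 21.5 ± 0.718%, PKR 19.7 ± 1.26% and PERK 6.85 ± 0.809%. These lengths join all annotated exons, and with the longest single transcript instead the GCN2 level became 25.1 ± 1.42 CPM per kb and its share 33.3 ± 0.958%, with the order of the 4 unchanged (HRI 45.9%, PKR 15.01%, PERK 5.71%).

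**Figure D2:**
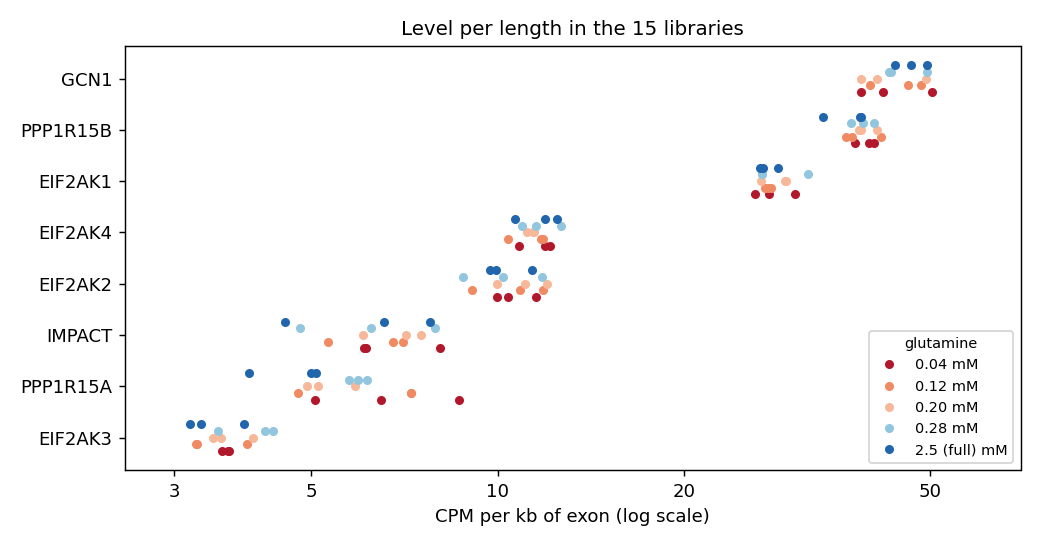
Level of each gene in CPM per kb of exon (horizontal log axis), with 1 point per library coloured by glutamine concentration and genes ordered by their mean. GCN1 and PPP1R15B have the highest level per length and EIF2AK3 the lowest (3.19 to 4.33 CPM per kb).

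GCN2, the kinase that senses amino acid shortage, had nearly the same TMM-scaled RNA level in all groups. Its 3 libraries held 130, 142 and 145 CPM at 0.04 mM, 124, 142 and 141 CPM at 0.12 mM, 137, 133 and 137 CPM at 0.20 mM, 131, 138 and 151 CPM at 0.28 mM, and 128, 143 and 149 CPM in full medium. The groups overlapped throughout, and the highest group mean was 1.03 times the lowest. With the block, the log2 fold change at 0.04 mM was -0.0055 (SE 0.0666), with a 95% interval from -0.14 to 0.13 and adjusted p = 0.971 in edgeR's test. On the log2 scale the change was -0.04 at 0.12 mM, -0.04 at 0.20 mM and 0.0050 at 0.28 mM. Scaled to the ERCC spike-ins instead, the changes were -0.01, -0.22, -0.09 and -0.12 from 0.04 to 0.28 mM. That scaling put the median of all genes at -0.18 at 0.12 mM and -0.13 at 0.28 mM. The low library in each limited group but 0.20 mM, and in full medium, was replicate 1.

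PERK, the kinase of the endoplasmic reticulum membrane, had the fewest counts of the 4 (74 to 293 per library, a counting error of 5.84 to 11.6%). Its libraries held 19.9, 19.5 and 20 CPM at 0.04 mM, 17.8, 21.4 and 17.7 CPM at 0.12 mM, 21.8, 19.4 and 18.8 CPM at 0.20 mM, 22.9, 23.5 and 19.2 CPM at 0.28 mM, and 18, 21.1 and 17.3 CPM in full medium. The group at 0.28 mM was the highest on average, and it was higher than full medium in 3 of 3 replicate pairs, but its lowest library was below the highest of full medium. The log2 fold change there was 0.22 (SE 0.117; 95% interval -0.02 to 0.46; adjusted p = 0.355, edgeR with the block). At 0.04, 0.12 and 0.20 mM the changes were 0.07, 0.0052 and 0.10. Of its exonic bases, 15.1% overlap antisense genes, and the strand setting of the counting is not given in the sources used here, so reads of the 2 strands may not be separated.

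HRI ranged from 145 to 176 CPM and PKR, which is also an interferon-induced gene, from 94.4 to 129 CPM over the 15 libraries. HRI held 145, 152 and 168 CPM at 0.04 mM against 149, 147 and 158 CPM in full medium, which overlap. Its log2 fold change was 0.03 (SE 0.067; 95% interval -0.11 to 0.17) at 0.04 mM and 0.01 to 0.06 at the other concentrations. PKR held 107, 124 and 112 CPM at 0.04 mM against 104, 107 and 122 CPM in full medium, which overlap too. Its log2 fold change was 0.06 (SE 0.0741; 95% interval -0.09 to 0.21) at 0.04 mM, and -0.02 to 0.09 at the others. Overlap with other genes' exons covers 9.6% of HRI (AIMP2, on the opposite strand) and 4.1% of PKR.

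GCN1, the ribosome-bound activator of GCN2, was the most abundant of the 8 by length, and its mean lay below that of full medium at each limited concentration without passing the test. GCN1 (ENSG00000089154, chr12:120127202-120194715, - strand) stood at 44.7 ± 4.13 CPM per kb (SD, n = 15). Its libraries held 486, 405 and 373 CPM at 0.04 mM, 467, 445 and 386 CPM at 0.12 mM, 475, 397 and 373 CPM at 0.20 mM, 477, 418 and 414 CPM at 0.28 mM, and 477, 424 and 450.1 CPM in full medium. Each group overlapped full medium, and replicate 1 was the highest library of each group. The log2 fold changes were -0.10 (SE 0.0674; 95% interval -0.24 to 0.03; adjusted p = 0.337) at 0.04 mM and -0.12 (SE 0.0668; -0.26 to 0.01; adjusted p = 0.22) at 0.20 mM in edgeR's test with the block. At 0.12 and 0.28 mM they were -0.06 and -0.05.

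IMPACT, the GCN2 inhibitor, was among the least abundant, at 6.53 ± 1.09 CPM per kb (SD, n = 15; ENSG00000154059, chr18:24426670-24453531, + strand). Its libraries held 30.1, 29.96 and 39.7 CPM at 0.04 mM, 26.2, 33.3 and 34.6 CPM at 0.12 mM, 29.8, 35.0 and 36.9 CPM at 0.20 mM, 23.6, 30.8 and 38.9 CPM at 0.28 mM, and 22.3, 32.2 and 38.2 CPM in full medium. In 4 of the 5 groups replicate 1 was lowest, in all 5 replicate 3 was highest, and the groups overlapped. The log2 fold change was 0.13 (SE 0.112; 95% interval -0.09 to 0.36; adjusted p = 0.472) at 0.04 mM and 0.16 (SE 0.106; -0.06 to 0.37; adjusted p = 0.345) at 0.20 mM in edgeR's test with the block.

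PPP1R15A, the inducible subunit whose protein ends eIF2alpha phosphorylation in a feedback loop, had the largest differences of the 8 genes from full medium. Its SD over the 15 libraries, which includes those differences, was 20.7% of its mean, the largest of the 8. PPP1R15A (ENSG00000087074, chr19:48872421-48876058, + strand) held 20.04, 15.7 and 26.75 CPM at 0.04 mM, 14.7, 22.4 and 22.4 CPM at 0.12 mM, 15.2, 18.2 and 15.9 CPM at 0.20 mM, 19.0, 17.8 and 18.4 CPM at 0.28 mM, and 15.4, 15.7 and 12.3 CPM in full medium. All 3 libraries at 0.28 mM lay above all 3 of full medium; at 0.04, 0.12 and 0.20 mM at least 1 library lay within the range of full medium or below it. Such a gap, in either direction, was seen in 9.29% of all genes tested at 0.28 mM, and in 15.2%, 12.2% and 15.6% at 0.04, 0.12 and 0.20 mM, where 0 of the 8 members had one.

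With the block, the fold change of PPP1R15A was 1.39 at 0.04 mM (95% interval 1.101 to 1.76). On the log2 scale that is 0.48 (SE 0.166), with adjusted p = 0.0526 in edgeR's test. It was 0.41 (SE 0.162; adjusted p = 0.121) at 0.12 mM, 0.16 (SE 0.161; adjusted p = 0.555) at 0.20 mM and 0.34 (SE 0.159; adjusted p = 0.289) at 0.28 mM. Without the block the log2 fold changes were 0.50, 0.44, 0.17 and 0.34, with adjusted p of 0.333, 0.607, 0.763 and 1.00. Replicate by replicate, the log2 ratio to full medium at 0.04 mM was 0.38, -0.0062 and 1.12, so 2 of 3 pairs were higher and 1 was level. The pairs at 0.12 mM gave -0.07, 0.51 and 0.87, those at 0.20 mM -0.02, 0.21 and 0.37, and those at 0.28 mM 0.30, 0.18 and 0.58. Replicate 3, whose full medium library was the lowest of all 15, gave the largest ratio at each concentration.

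Leaving out single libraries moved PPP1R15A across the threshold. Without replicate 2 at 0.04 mM the log2 fold change there became 0.69 (adjusted p = 0.0133, edgeR with the block), and without replicate 1 of full medium 0.59 (adjusted p = 0.0324). Without the 2 libraries rich in mitochondrial ribosomal RNA, 1 of which held the highest PPP1R15A level of all, it was 0.29 (adjusted p = 0.304). Without the replicate 3 libraries of all groups it was 0.23 (adjusted p = 0.491). Single libraries also lowered it at 0.04 mM, to 0.31 (adjusted p = 0.275) without replicate 3 of that group and 0.33 (adjusted p = 0.249) without replicate 3 of full medium. At 0.12 mM the change became 0.62 (adjusted p = 0.0258) without replicate 1 of that group. There it was 0.27 (adjusted p = 0.487) without replicate 2 and 0.26 (adjusted p = 0.439) without replicate 3 of full medium. The gene had 95 to 244 counts per library, a counting error of 6.40 to 10.3%. Its biological coefficient of variation with the block was 0.11, the highest of the 8 (0.0515 to 0.0717 in the others). Without the block that of IMPACT was higher, 0.17 against 0.154 for PPP1R15A.

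PPP1R15B, the constitutive subunit, was far more abundant than PPP1R15A and steadier. On the per-length scale PPP1R15B (ENSG00000158615, chr1:204395826-204411817, - strand) stood at 38.6 ± 2.03 CPM per kb against 5.82 ± 1.21 for PPP1R15A (SD, n = 15). PPP1R15A made up 11.3 ± 1.85% of the 2 subunits' summed per-length level in full medium, 13.3 ± 0.885% at 0.28 mM, 11.9 ± 0.603% at 0.20 mM, 14.2 ± 2.44% at 0.12 mM and 14.5 ± 3.14% at 0.04 mM (SD, n = 3). PPP1R15B held 198, 208 and 212 CPM at 0.04 mM against 175, 201 and 202 CPM in full medium, and was higher in 3 of 3 pairs with the groups overlapping. Its log2 fold changes from 0.04 to 0.28 mM were 0.10, 0.07, 0.10 and 0.08, with SEs of 0.061 to 0.0622 and adjusted p of 0.317 to 0.582 in edgeR's test with the block. Scaled to the ERCC spike-ins instead, these changes turned to -0.12 at 0.12 mM and -0.05 at 0.28 mM, where that scaling lowered the median of all genes by 0.18 and 0.13.

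**Figure D3:**
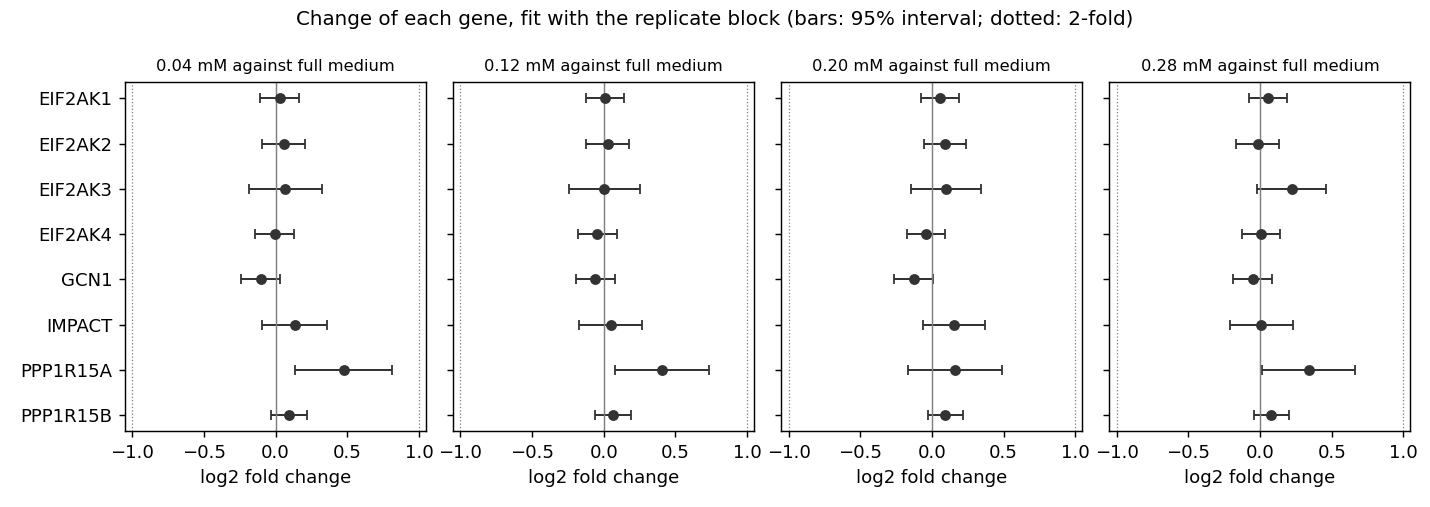
Log2 fold change against full medium (horizontal axis) of each gene at the 4 limited concentrations, with the replicate block; bars are 95% intervals and dotted lines mark a 2-fold change. The intervals of PPP1R15A leave out 0 at 0.04, 0.12 and 0.28 mM, while those of the other 7 genes all include 0 and lie between -0.26 and 0.46.

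With TMM scaling, the intervals bound how much each of the other 7 genes can have changed, taken 1 comparison at a time. Over their 28 comparisons with full medium, the 95% intervals with the block ran from -0.26 to 0.46 on the log2 scale, that is from 0.835-fold to 1.38-fold. Without the block they ran from -0.42 to 0.56 (0.748-fold to 1.48-fold). The upper end belonged to PERK at 0.28 mM and the lower to GCN1 at 0.20 mM in the fit with the block. A p above the threshold does not show that these genes did not change within those bounds. Scaled to the ERCC spike-ins, with the block, all 7 lay below full medium at 0.12 mM. Their log2 fold changes ran from -0.24 (GCN1) to -0.12 (PPP1R15B), and the median of all genes was -0.18.

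The order of the group means differed from gene to gene, and neighbours in it were not separated. Full medium had the lowest mean of HRI, PERK, IMPACT, PPP1R15A and PPP1R15B and the highest of GCN1. The highest mean exceeded the lowest by a factor of 1.44 for PPP1R15A, 1.16 for PERK, 1.097 for IMPACT, 1.09 for GCN1 and 1.03 to 1.08 for the others. Between pairs of limited concentrations, 0 of 48 member tests per fit passed adjusted p under 0.05 in edgeR's test and 0 had an unadjusted p under 0.05. The smallest adjusted p was 0.520 with the block, for PKR between 0.20 and 0.28 mM, at a log2 difference of 0.11 (SE 0.0718). Of all genes, 0.701% were called in that pair with the block, 0.0434% between 0.04 and 0.28 mM, 0.0145% between 0.12 and 0.20 mM, 0.00723% between 0.04 mM and each of 0.12 and 0.20 mM, and 0.0% between 0.12 and 0.28 mM. The largest log2 difference was that of PPP1R15A between 0.04 and 0.20 mM, 0.31 with an adjusted p = 0.671 in the same test. A test for a difference anywhere among the 5 groups gave PPP1R15A an adjusted p = 0.188 in edgeR's test with the block and the other 7 adjusted p of 0.584 to 0.954, and 10.7% of all genes were called by it. Along log2 glutamine within the 12 limited libraries, the slope of PPP1R15A was -0.08 per doubling (SE 0.053; adjusted p = 0.801), those of the others lay between -0.02 and 0.05, and 0.0% of all genes were called, with 1063 at an unadjusted p under 0.05, 0 of them members.

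For 6 of the 8 genes most of the variance lay between replicate numbers, not between glutamine groups. Of the variance of log2 CPM over the 15 libraries, the replicate number held 76.7% for IMPACT, 71.3% for GCN1, 68.5% for PKR, 67.1% for GCN2, 55.1% for PPP1R15B and 52.6% for HRI, where the median of all genes was 36.7%. The glutamine group held 6.89 to 22.4% for these 6, and 24.0% for the median gene. PERK and PPP1R15A differed from them, with 34.8% and 42.5% between glutamine groups and 28.8% and 4.47% between replicate numbers. Such shares lie above 0 even where only the spread of single libraries separates the means. The test for any difference among the 5 groups called neither gene (adjusted p = 0.584 and 0.188, edgeR with the block). GCN1 showed the split most plainly: the 5 libraries of replicate 1 held 467 to 486 CPM and the other 10 at most 450.1 CPM. IMPACT averaged 26.4, 32.3 and 37.7 CPM over the 5 libraries of replicates 1, 2 and 3, and PKR 102, 115 and 124 CPM. The labels do not say what the replicate numbers stand for, and the cause of this split was not tested.

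**Figure D4:**
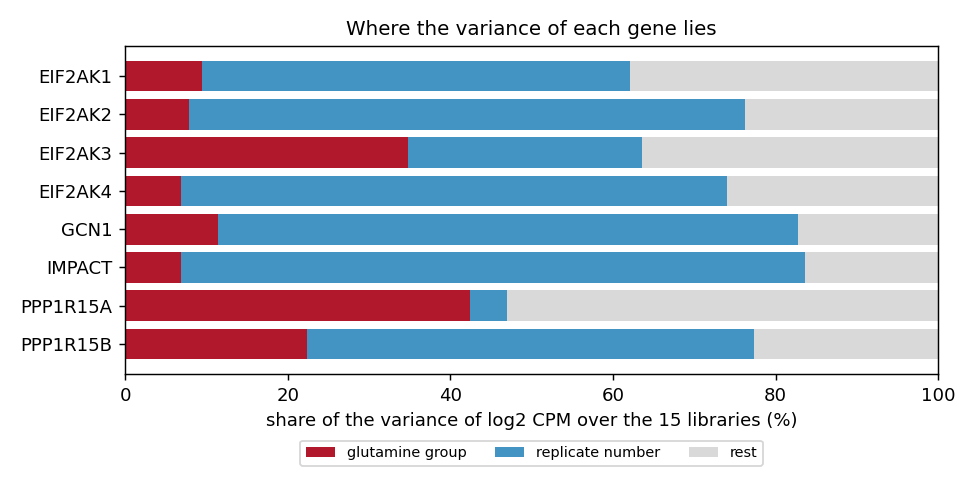
Share of each gene's variance of log2 CPM over the 15 libraries (horizontal axis, percent) that lay between glutamine groups (red), between replicate numbers (blue) and in the rest (grey). The blue share is over 50% for EIF2AK1, EIF2AK2, EIF2AK4, GCN1, IMPACT and PPP1R15B, and 4.47% for PPP1R15A.

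For each gene, the 3 genes with the most similar pattern were taken by Pearson's r of log2 CPM over the 15 libraries after the mean of each replicate number was removed, as a description of libraries that share depth and groups. PPP1R15A was most like PDCD1LG2 (r = 0.903), PRSS8 (0.888) and FAM83F (0.883). GCN1 was most like CAD (0.912), CPT1A (0.897) and ADAR (0.894), and GCN2 most like CALHM2 (0.864), BICRAL (0.835) and UBE4B (0.816). PERK was most like DENND5A (0.877), ALKBH3 (0.789) and ACOX3 (0.768), PKR like STK17B (0.897), TMEM170A (0.879) and MPHOSPH8 (0.862), and HRI like LIPT2-AS1 (0.82), VARS2 (0.818) and ICAM1 (0.802). Of these, LIPT2-AS1 and VARS2 averaged only 1.58 and 1.07 CPM. IMPACT was most like SMC3 (0.898), OCIAD1 (0.892) and UTP18 (0.891), and PPP1R15B like CARD6 (0.929), PCNX1 (0.929) and NR3C1 (0.922). All these r are the highest among the tested genes with a symbol. The 99th percentile of r over those genes ran from 0.552 for PERK to 0.797 for PPP1R15B.

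The genes that work with these 8 were read from 7 lists, of which 87 genes were tested. With the block, 22 of them were called in at least 1 comparison with full medium, 35 calls in all. From 0.04 to 0.28 mM these were 14, 7, 12 and 2 of the 87. Beside them stand 13.4%, 8.31%, 14.8% and 2.08% of all genes tested, so the lists together were called at rates near those of all genes. Split by direction, 997, 610, 1061 and 170 of the 13828 genes rose and 861, 539, 989 and 117 fell. The called log2 fold changes lay between -0.48 and 0.47, except VLDLR at 0.12 mM (1.64). Without the block edgeR's test called 0, with 24 of 348 gene comparisons at an unadjusted p under 0.05, and DESeq2 called 0. Of the 35 calls, 8 held when each of the 6 libraries compared was left out in turn, and they belong to XPOT (at 0.04, 0.12 and 0.20 mM), CEBPB, DNAJC3 and ILF2 (at 0.04 mM), and NFE2L2 and BAG3 (at 0.20 mM). With spike-in scaling 5 calls stood, with libraries thinned to equal depth 13, and without the 2 libraries rich in mitochondrial ribosomal RNA 23.

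**Figure D5:**
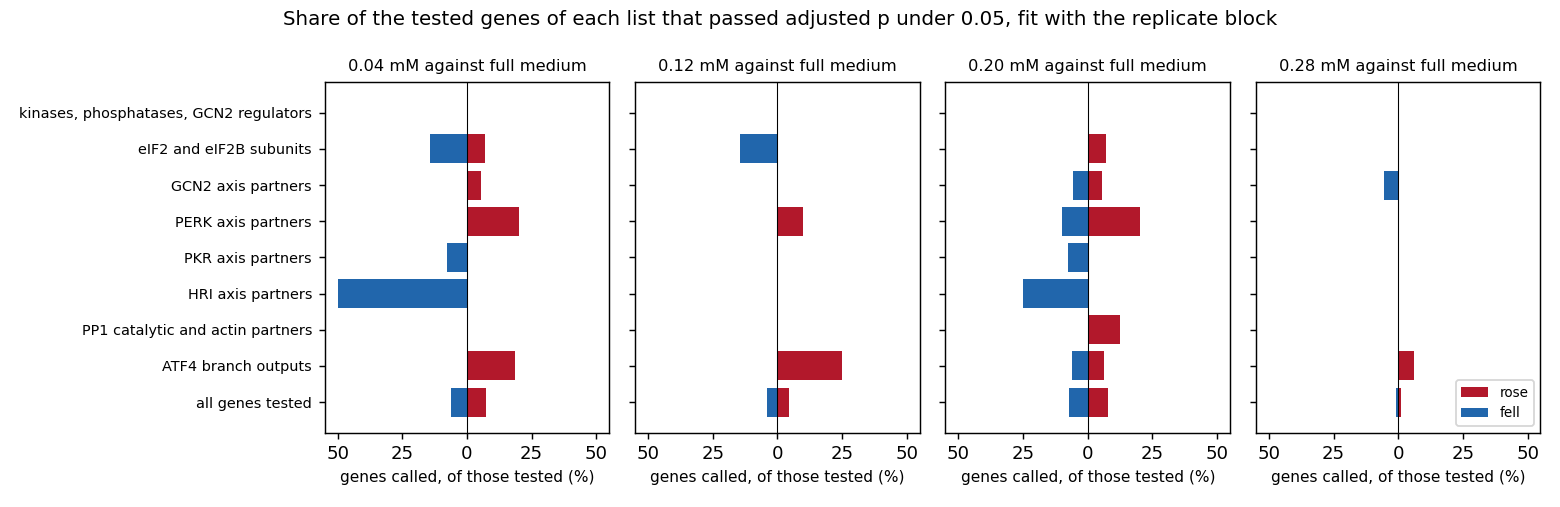
Share of the tested genes of each list (horizontal axis, percent) that passed adjusted p under 0.05 with the replicate block, above full medium (red, to the right) or below it (blue, to the left), at each limited concentration. The row of the 8 genes described here is empty throughout, beside 13.4%, 8.31%, 14.8% and 2.08% of all genes in the 2 directions together.

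Downstream of eIF2alpha, of 16 genes of the ATF4 branch, 3 rose at 0.04 mM (XPOT, CEBPB and TRIB3), 4 at 0.12 mM (these and VLDLR), XPOT alone at 0.20 mM and TRIB3 alone at 0.28 mM, while WARS1 fell at 0.20 mM. The list's median log2 fold change was 0.21, 0.17, 0.02 and 0.15 from 0.04 to 0.28 mM. With spike-in scaling it became -0.0067 at 0.12 mM and -0.02 at 0.20 mM, where that scaling put the median of all genes at -0.18 and -0.04. XPOT, which exports tRNA from the nucleus, went from 204 ± 49.1 CPM in full medium to 279 ± 40.4 CPM at 0.04 mM (SD, n = 3), a log2 fold change of 0.47 (SE 0.0714; adjusted p = 5.1e-05, edgeR with the block). At 0.12 mM it was 0.32, and 0.21 without replicate 1 of full medium. CEBPB, a transcription factor of the C/EBP family, went from 141 ± 12.8 to 175 ± 8.51 CPM (0.32, SE 0.0702; adjusted p = 0.0024), and 11.8% of its exonic bases overlap another gene. TRIB3, a pseudokinase that restrains ATF4, had a log2 fold change of 0.30 (SE 0.0765; adjusted p = 0.0084), which missed the threshold without replicate 2 at 0.04 mM (0.21, adjusted p = 0.135) or without replicate 3 of full medium (0.25, adjusted p = 0.0513). ATF4 itself stood at 460 ± 104 CPM at 0.04 mM against 383 ± 6.48 CPM in full medium (log2 fold change 0.23, SE 0.0826; adjusted p = 0.0636). VLDLR and WARS1 were named after their values were seen. VLDLR had a log2 fold change of 1.64 at 0.12 mM (adjusted p = 0.035, edgeR with the block). That call held in 2 of the 6 fits that each left out a library. After thinning to equal depth VLDLR was not tested, and DESeq2 gave it no adjusted p. The call of WARS1 at 0.20 mM held in 1 of 6 such fits, and those of TRIB3 in 1 at 0.12 mM and 2 at 0.28 mM.

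Of the 14 genes of eIF2, eIF2B and their helpers, 1 rose and 2 fell at 0.04 mM (EIF2A up, EIF2B1 and EIF5 down), EIF5 and CDC123 fell at 0.12 mM, EIF2A rose at 0.20 mM and 0 were called at 0.28 mM, where 3 had an unadjusted p under 0.05 and DESeq2 called 0. EIF2S1, which encodes eIF2alpha, held 141 ± 11.2 CPM at 0.04 mM and 158 ± 22.4 CPM in full medium (SD, n = 3; log2 fold change -0.15, SE 0.0687; adjusted p = 0.139, edgeR with the block). EIF5, the GTPase-activating partner of eIF2, held 180 ± 25.8 against 218 ± 35.9 CPM (-0.27, SE 0.0793; adjusted p = 0.0196), and its call at 0.04 mM held in 2 of the 6 fits that each left out a library; without replicate 1 of full medium its change was -0.43. Without that same library EIF2A moved from 0.26 to 0.14 at 0.04 mM (adjusted p = 0.285) and from 0.34 to 0.23 at 0.20 mM (adjusted p = 0.06). The list's median lay between -0.16 and -0.04 in the 4 comparisons.

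Of 18 genes of the GCN2 axis, MAP3K20, the ribosome collision kinase ZAK, rose at 0.04 and 0.20 mM (0.24 and 0.19 on the log2 scale), ABCF1 fell at 0.20 mM and RWDD2B fell at 0.28 mM. The call of ABCF1 held in 0 of the 6 fits that each left out a library, and that of RWDD2B in 1. With GC content and length corrected, MAP3K20 was not called (0.08 at 0.04 mM and -0.0034 at 0.20 mM). Of 10 genes of the PERK axis, DNAJC3, a co-chaperone that inhibits PERK and PKR, rose at 0.04 mM (152 ± 8.72 to 182 ± 10.7 CPM; 0.26, SE 0.0649; adjusted p = 0.0068) and at 0.20 mM. NFE2L2, a PERK substrate, rose at 0.04, 0.12 and 0.20 mM (0.25, 0.21 and 0.31), with 20.9% of its exonic bases shared with other genes, and HSPA5, the chaperone that binds PERK, fell at 0.20 mM (-0.28; adjusted p = 0.0263). The call of HSPA5 held in 2 of the 6 fits that each left out a library, and without replicate 3 of full medium its change was -0.15 (adjusted p = 0.246). With GC content and length corrected, DNAJC3 moved from 0.22 to 0.07 at 0.20 mM (adjusted p = 0.572) and to 0.17 at 0.04 mM (adjusted p = 0.0717).

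Of 8 tested genes of the HRI axis, 4 fell at 0.04 mM and 2 at 0.20 mM. Of all 13828 genes tested, 861 fell at 0.04 mM and 989 at 0.20 mM. HSPA8, HSP90AB1, HSP90AA1 and BAG3, all chaperones or co-chaperones, fell at 0.04 mM, with log2 fold changes of -0.32, -0.34, -0.34 and -0.25 and adjusted p of 0.0041, 0.0095, 0.0198 and 0.0202 in edgeR's test with the block. BAG3 and CDC37 fell at 0.20 mM (-0.42 and -0.23), CDC37 being named after its values were seen. Each of the 4 calls at 0.04 mM ended without replicate 2 of that group, with adjusted p of 0.0572 to 0.148. Without replicate 3 of full medium, HSP90AA1 moved to -0.16 (adjusted p = 0.275), HSP90AB1 to -0.20 (adjusted p = 0.126) and BAG3 lost its call at 0.04 mM (adjusted p = 0.0996); without replicate 1 of full medium, HSP90AA1 moved to -0.51. DESeq2 did not call HSP90AA1 (adjusted p = 0.0847). The call of CDC37 held in 2 of the 6 fits that each left out a library, and with GC content and length corrected its change was -0.10 (adjusted p = 0.371). Of 13 tested genes of the PKR axis, ILF2, a partner of double-stranded RNA binding proteins, fell at 0.04 mM (404 ± 33.8 to 330 ± 13.5 CPM; -0.29, SE 0.0698; adjusted p = 0.0047) and at 0.20 mM (-0.20), where its change was -0.13 without replicate 3 of full medium (adjusted p = 0.224).

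Of the 8 genes of the phosphatase 1 catalytic and actin group, edgeR's test with the block called 0 at 0.04, 0.12 and 0.28 mM, 0 had an unadjusted p under 0.05 there and DESeq2 called 0, while PPP1CC rose at 0.20 mM. PPP1CC, 1 of the 3 catalytic subunits, held 166 ± 23.9 CPM at 0.20 mM and 140 ± 34.7 CPM in full medium (SD, n = 3; log2 fold change 0.26, SE 0.08; adjusted p = 0.0273, edgeR with the block), and the call held in 1 of the 6 fits that each left out a library, with a change of 0.15 without replicate 1 of full medium. At 0.04 mM, PPP1CA, PPP1CB and PPP1CC had log2 fold changes of 0.02, -0.03 and 0.08, with adjusted p of 0.882, 0.887 and 0.563. The median log2 fold change of the 8 genes described here was 0.06, 0.02, 0.09 and 0.03 from 0.04 to 0.28 mM, and that of all genes tested was at most 0.0064.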

How the data were processed

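Total RNA was depleted of ribosomal RNA (RiboErase), given ERCC spike-ins and sequenced on an Illumina NextSeq from 300 ng, per the labels' protocols. The authors deposited integer counts per gene and library, 62754 Ensembl genes and 92 spike-ins, and the submitters' processing notes name GRCh38.p14. The sources used here name no aligner, counter or strand setting. Each of the 15 columns matched 1 sample.

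The counts were used as deposited in edgeR 4.0.16 (R 4.3.3): filterByExpr (minimum count 10, minimum total 15), TMM, a quasi-likelihood fit of all 15 libraries by group, and Benjamini-Hochberg adjustment over 13828 genes. A second fit added the replicate number as a block: 30 of 30 pairs of libraries sharing a number had deviations from their group means that correlated over 0.1 (r 0.184 to 0.489; different numbers -0.406 to 0.0549), and 15 of 15 libraries correlated best with their own number. CPM are TMM-scaled except those of the cell type markers, and log2 CPM uses a prior count of 2. Exon lengths, GC content and overlaps come from GENCODE 29, gene coordinates and promoters from RefSeq GRCh38.p14. The edgeR code was tested on simulated data.

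The members and lists were chosen with earlier results of these data known. Named from each list are up to 4 genes with the smallest adjusted p at 0.04 mM, plus EIF2S1, ATF4 and PPP1CA, PPP1CB and PPP1CC; others are marked. Alternatives were DESeq2 1.42.0, its size factors, spike-in scaling, other filters, the 2 groups alone, thinning to 3704170 counts, a GC and length offset, and libraries left out. The result of 1 list of cell type markers is not reported here.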

Additional observations from a re-analysis of the deposited data

How the results depend on the processing

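The number of members called against full medium was 0 in both fits at all 4 concentrations. With the replicate block it became 1, PPP1R15A, at 0.04 mM with DESeq2 (log2 fold change 0.50, adjusted p = 0.0467) and with its size factors in edgeR (0.49, adjusted p = 0.0473). The same gene alone was called there in edgeR's test with genes kept at a total of 1 count or more (0.46, adjusted p = 0.0358) and with a GC and length offset (0.55, adjusted p = 0.0231). Leaving out 1 library at a time gave 0 to 1 at 0.04 and at 0.12 mM and 0 to 0 at the others. The cause was not tested. Over 16 alternatives with the block, PPP1R15A kept a positive change: 0.23 to 0.69 at 0.04 mM, 0.23 to 0.73 at 0.12 mM, 0.01 to 0.39 at 0.20 mM and 0.19 to 0.49 at 0.28 mM. Of 1088 recomputed member values, 959 kept their sign and side of the threshold, 7 (PPP1R15A) passed it and 122 turned sign with neither value called. Of the calls in the lists, MAP3K20 at 0.20 mM turned sign with the GC and length offset (-0.0034). With the block, all genes called, from the lowest to the highest limited concentration, numbered 1858, 1149, 2050 and 287, against 6, 0, 2 and 0 without it. Without the block they were 155, 23, 43 and 1 with DESeq2, and 159, 58, 84 and 19 with genes kept at a total of 1 count or more. With the block and spike-in scaling they were 506, 1206, 421 and 120, and after thinning 700, 354, 634 and 67. Still with the block, the 2 groups alone gave 1189, 296, 1706 and 306. The fit without replicate 3 gave 985, 455, 978 and 1, and the GC and length offset gave 946 at 0.20 mM. Leaving out 1 library at a time with the block gave 956 (0.04 mM replicate 2) to 2058, 537 (0.12 mM replicate 2) to 1439, and 977 (0.20 mM replicate 1) to 1857 genes at the 3 lower concentrations; counts moved over 1.5 times also without 0.20 mM replicate 3 (1113) and, at 0.12 mM, without full medium replicate 2 (742) or 3 (682). At 0.28 mM they were 33 without its replicate 1, 24 without its replicate 3, and 780, 68 and 68 without full medium replicate 1, 2 and 3. The offset, thinning and the fits without the 2 libraries rich in mitochondrial ribosomal RNA were chosen after seeing the data.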
